A study of Mus musculus with 6 samples.

Results

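The cells described here are B cells in which no transcript of the low-affinity IgE receptor CD23 (Fcer2a) or of immunoglobulin D (Ighd) was counted. They were picked from single-cell RNA libraries of whole mouse lung and were chosen by their own counts. A cell barcode counted as a member when it held at least 500 genes, at least 2000 UMIs (unique molecular identifiers, which count captured transcripts) and at most 15% mitochondrial UMIs. It also had to hold at least 2 UMIs of Cd79a (a chain of the B cell receptor complex), at least 1 of Ms4a1 (CD20), and 0 of Fcer2a, Ighd, Cd3e, Cdh5 and C1qa. The rule found 250 members among 94392 deposited barcodes, of which 85694 passed the same cell filters. The same gate without the 2 conditions on Fcer2a and Ighd held 4784 B cells: the members, 3597 cells with a Fcer2a UMI (called CD23-positive below) and 937 cells with Ighd but no Fcer2a UMI (called IgD-only).

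The lungs came from male C57BL/6 mice of 21 months, with 1 library per mouse and 3 mice per group. Mice labelled p16-DTR carried p16-CreERT2 and R26-LSL-DTR, and control mice carried p16-CreERT2 alone, so both groups share the Cre allele driven by the p16 promoter. Tamoxifen was given to every mouse over 5 days; 2 weeks later came 5 days of diphtheria toxin, and the lungs were taken when 2 further weeks had passed, a scheme meant to remove cells with high p16. Each library mixed 20000 sorted CD45-negative with 9000 CD45-positive cells, so shares of all barcodes follow that mixture and shares below are taken within B cells or leukocytes.

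Most circulating and lymphoid mouse B cells are follicular cells, which carry CD23 and IgD on their surface. Both can be low or absent in several other B cells: class-switched memory cells, antibody-secreting cells and B-1 cells, which make much of the natural IgM. The same holds for the age-associated B cells of old mice, known for the transcription factor T-bet (Tbx21) and the integrin CD11c (Itgax). A rule based on the absence of transcripts can gather all of these, along with follicular cells whose transcripts were missed.

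Library depth bears on that last group. The 6 libraries held 13482 to 17332 barcodes and 254200305 to 344421685 UMIs, and the members of a library summed to 845498 to 1727650 UMIs. Members had a median of 20739 UMIs per cell against 13557 in CD23-positive cells, and the median was highest in library p16-DTR 1, at 41942. Members made up 13.7% of gated B cells at 2000 to 5000 UMIs, 2.31% at 10000 to 20000 UMIs and 16.8% at 40000 UMIs or more, or 5.58% there without the Jchain-high members described below. At the edges of the rule, 31 further cells met every condition but held 1 Cd79a UMI, 16 held 1 Fcer2a UMI and no Ighd, and 112 held 1 Ighd UMI and no Fcer2a. The library pairs shared 59 to 94 barcodes by sequence, and no member barcode was shared.

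Cdkn2a, the gene of p16, is the gene whose expressing cells the treatment targets. The members' summed counts gave 11.8, 28.4 and 22.5 CPM (UMIs of the gene per 1000000 UMIs) of Cdkn2a in libraries p16-DTR 1 to 3, and 0.809, 2.19 and 2.37 CPM in controls 1 to 3. The 3 p16-DTR values all lay above the 3 control values, although the scheme was meant to remove cells with high p16. The control values rest on few UMIs, with 5 of 106 control members holding one, and the counts cannot tell p16 from p19Arf. The reason for the direction was not tested. The groups are written as the libraries labelled p16-DTR and the control libraries.

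The members were not of 1 kind. They were divided by transcripts into 5 groups, with limits set after the values were seen, so the genes that set the groups are not findings and no test was made between them. Jchain encodes the chain that joins IgM and IgA into polymers, and 53 members (21.2%) held at least 50 of its UMIs. No member lay between 39 and 85 Jchain UMIs, whereas 10 of the 3597 CD23-positive cells passed that limit. Another 29 members (11.6%) held transcripts of myeloid or dendritic cells, meaning at least 10 UMIs of Lyz2 (lysozyme) or at least 3 UMIs over 5 dendritic cell genes. A further 44 (17.6%) had a switched immunoglobulin isotype. Of the remaining cells, 65 (26.0%) held at least 2 of Cd80, Nt5e (CD73) and Zbtb32, genes known from memory and B-1 cells, and 59 (23.6%) held fewer than 2 of them. These last groups are called unswitched: IgM was called in 63 of the 65 and 55 of the 59, and the other 2 and 4 cells had too few constant gene UMIs for a call.

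**Figure D1:**
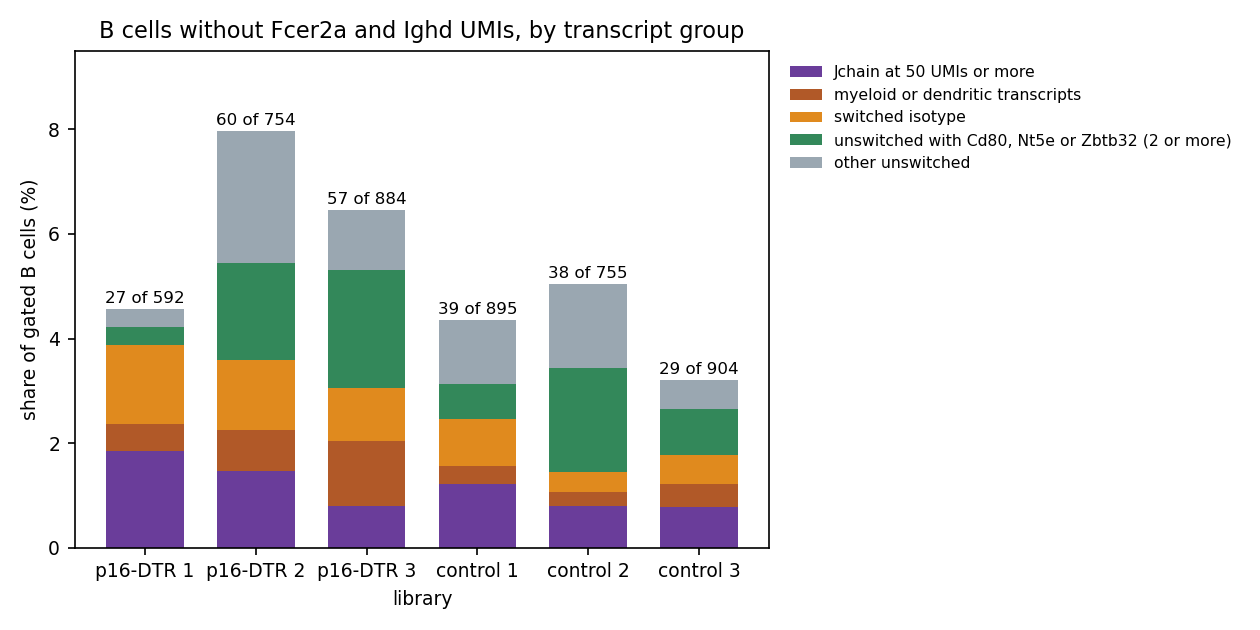
Members as a percentage of gated B cells in each of the 6 libraries, with the 5 transcript groups stacked and the numbers of members and B cells above each bar. All 5 groups were found in every library, and libraries p16-DTR 2 and p16-DTR 3 had the tallest bars.

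The label's markers were checked first. Cd79a and Ms4a1 were set by the rule, with medians of 26 and 13 UMIs per member. The Jchain-high members lay near the rule's limit for Ms4a1, with a median of 2 UMIs. Of all members, 24 held 1 Ms4a1 UMI and 25 held 2. Cd79b, the partner chain of Cd79a, was found in 93.6% of members. A Tbx21 UMI was found in 33 of 250 members (13.2%, 95% Wilson interval 9.56 to 18.0%) and an Itgax UMI in 26 (10.4%, 7.20 to 14.8%). At least 1 of the 2 was found in 52 members (20.8%) and both in 7. The same count gave 246 of 3597 CD23-positive cells (6.84%) and 115 of 937 IgD-only cells (12.3%) with at least 1 of them. These shares count cells with a UMI, not cells that express the gene, and Tbx21 was low, at 9.57 CPM over all members. Neither marker was seen in most members, and the name age-associated B cells is not used for the whole set.

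Both markers were spread unevenly over the transcript groups. Among the 65 unswitched members with Cd80, Nt5e or Zbtb32, 15 had a Tbx21 UMI and 7 an Itgax UMI. Among the 44 switched members these numbers were 6 and 3, and among the 53 Jchain-high members 5 and 8. The 29 members with myeloid or dendritic transcripts had 7 and 8. Of the 59 other unswitched members, 0 had a UMI of either gene, which allows a share of cells with a UMI of up to 5.08% and sets no limit on cells expressing them. These cells had a median of 8151 UMIs against 21079 in the unswitched group with Cd80, Nt5e or Zbtb32. Itgax is also a dendritic cell and neutrophil transcript: after thinning to 5000 UMIs per cell, an Itgax UMI was held by 14.0% of neutrophils under the p16-DTR label and 15.3% under the control label. Its part in the members' Itgax counts was not tested.

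Among the 53 Jchain-high members, genes of antibody secretion were found in most cells. Of the plasma cell list used below, Fkbp11 (71.7%) and Tnfrsf17 (81.1%) were found in the smallest shares. Prdm1, the regulator that drives plasma cell differentiation, was found in 96.2% of these cells, Sdc1 (CD138) in 90.6%, Derl3 (protein disposal in the endoplasmic reticulum) in 94.3% and Xbp1 (the secretory stress regulator) in 100%. In CD23-positive cells the shares were 6.37%, 4.48%, 2.00% and 40.0%. Mki67, a marker of cycling cells, was found in 56.6% of the Jchain-high members, with a median of 1 UMI. Of the other genes of the proliferation list used below, Pcna was found in 73.6% and Top2a in 34.0%. Tyms, Mcm5, Birc5, Cdk1 and Ccnb1 were found in 11.3 to 18.9%, so the share of cycling cells is not settled by Mki67. The cytokine gene Il10 was found in 39.6% of the Jchain-high members. Per UMI, Il10 stood at 16.4 CPM in them, 21.9 CPM in the Cd80, Nt5e or Zbtb32 group and 17.05 CPM in IgD-only cells. Immunoglobulin transcripts lower the CPM of every other gene in the Jchain-high group, so these values do not rank the groups. Igkc alone stood at 275371 CPM there, against 24902 CPM in IgD-only and 7428 CPM in CD23-positive cells. The Jchain-high members were also the deepest group, with a median of 63249 UMIs. Their isotypes were mixed, with 26 IgM, 11 IgA, 7 IgG2c, 5 IgG2b, 3 IgG1 and 1 IgG3 cells. Ccr7, the receptor that guides cells to lymph nodes, was found in 9.43% of them against 96.3% of CD23-positive cells. Per UMI, Ccr7 stood at 3.51 CPM against 566 CPM and Cxcr4 at 109 CPM against 407 CPM.

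The 65 unswitched members with Cd80, Nt5e or Zbtb32 carried several other genes known from B-1 cells. Bhlhe41, a transcription factor needed for B-1 cells, was found in 76.9%, Fcrl5 in 80.0%, Cd9 in 80.0%, Spn (CD43) in 58.5% and Ctla4 in 50.8%. Shares in CD23-positive cells were 9.51%, 12.1%, 16.9%, 10.3% and 8.26%. Jchain-high members held Bhlhe41 in 71.7%, Fcrl5 in 17.0%, Cd9 in 73.6%, Spn in 71.7% and Ctla4 in 86.8%, at a greater depth, and switched members held Bhlhe41 in 68.2%, so these genes were not confined to the unswitched group. Cd5, the surface marker of B-1a cells, was found in 11 of 65 (16.9%) against 1.64% of CD23-positive cells. Cr2, the complement receptor CD21 of follicular and marginal zone cells, was found in 1.54% against 68.5%. The same 2-of-3 definition of Cd80, Nt5e and Zbtb32 was applied after Jchain-high, myeloid or dendritic and switched cells were set apart. It took in 2.59% of CD23-positive cells and 22.2% of IgD-only cells, so this pattern was not confined to cells with no Ighd UMI.

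The 44 switched members held some genes known from memory B cells in larger shares than CD23-positive cells, but not all. Pdcd1lg2 and Nt5e were found in 63.6% and 68.2% of the switched members, against 22.2% and 5.34% of CD23-positive cells. Cd80, Cd44, Itgb1 and Ccr6 were also found in larger shares than in CD23-positive cells. Cd27 was found in 0 of 44 against 5.45%, but a count of 0 there allows up to 6.82%, so no lower share is shown. Cd38 was found in 56.8% against 73.8%. Hhex was found in 52.3% against 49.8%, at 37.6 CPM against 53.2 CPM. The chemokine receptor Cxcr3 was found in 27.3% against 3.48% of CD23-positive cells. Their isotypes were 15 IgG2b, 12 IgA, 9 IgG2c, 7 IgG1 and 1 IgG3.

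The 59 other unswitched members stood nearest to CD23-positive cells in Satb1 and Bach2, of the 5 groups. Satb1 was found in 69.5% of them (98.3% of CD23-positive cells), Ccr7 in 76.3% and Vpreb3 in 47.5%, at the lowest depth of the 5 groups. In the unswitched group with Cd80, Nt5e or Zbtb32 the corresponding shares were 16.9%, 76.9% and 6.15%. Bach2, a repressor of plasma cell fate, had a pooled level of 1701 CPM in the other unswitched members, 585 CPM in the Cd80, Nt5e or Zbtb32 group, 133 CPM in the Jchain-high members and 2148 CPM in CD23-positive cells.

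The 29 members with myeloid or dendritic transcripts came from all 6 libraries, with 11 in p16-DTR 3. S100a8, a neutrophil gene, was found in 69.0%. They still held the B cell gene Cd79b in 89.7%. No doublet caller was applied, because the rule has none, and whether these barcodes held more than 1 cell was not tested. Results below are given in part also without this group and the Jchain-high group.

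**Figure D2:**
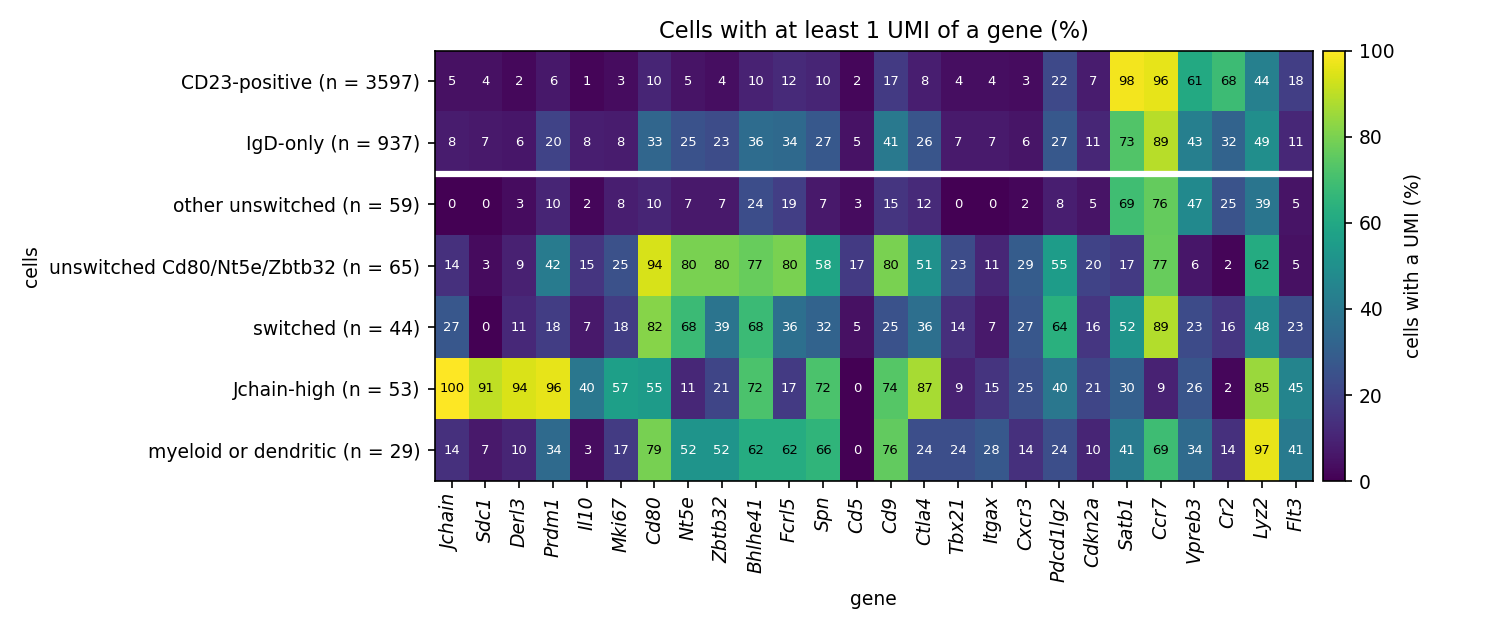
Percentage of cells with at least 1 UMI of each gene (columns) in CD23-positive and IgD-only B cells (above the white line) and in the 5 transcript groups of members (below it), with no correction for depth. Tbx21 and Itgax reach at most 27.6% in any row, whereas Jchain, Sdc1, Derl3 and Prdm1 fill the Jchain-high row and Cd80, Nt5e, Zbtb32, Bhlhe41 and Fcrl5 the unswitched row defined by 3 of them.

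An isotype was called from the constant gene with most UMIs, at least 3, in 243 members. IgM led with 162 cells, followed by 29 IgG2b, 23 IgA, 16 IgG2c, 11 IgG1 and 2 IgG3 cells. Ighg2b and Ighg2c are close relatives, and counting could split their reads. The switched cells were 81 in number. In the libraries labelled p16-DTR, 66.7%, 24.6% and 28.1% of members with an isotype were switched, and in the control libraries 42.1%, 19.4% and 35.7%. Library p16-DTR 1 stood above the other 5, and the groups overlapped. The means were 39.8% ± 23.4 and 32.4% ± 11.7 (SD, n = 3 each), with a two-sided exact permutation p of 0.8 (adjusted p = 0.9 over the 6 share tests). With 3 libraries per group the smallest p this test can give is 0.1. Without library p16-DTR 1 the difference turned from 7.34 to -6.11 percentage points. It was 15.2 points without the Jchain-high and the myeloid or dendritic groups, 13.8 without cells holding strict contaminant genes and 3.06 in cells of at least 5000 UMIs, with exact permutation p values of 0.6, 0.3 and 0.8. The strict contaminant genes are 20 defining genes of other lung and blood cells, and leaving out cells with at least 2 UMIs of any of them kept 84 of the 250 members, 3 of them from p16-DTR 1.

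The level of single isotypes varied widely between libraries. Members' Ighg1 stood at 10580 CPM in p16-DTR 1, 0.579 in p16-DTR 2, 30.4 in p16-DTR 3, 183 in control 1, 24.1 in control 2 and 10.6 in control 3. Ighg2c was at 18644, 12794 and 17.8 CPM in libraries p16-DTR 1 to 3 and at 12289, 36.1 and 23.7 CPM in controls 1 to 3. Both genes differed widely between libraries of the same group, and these levels went with a few Jchain-high cells. IgG1 cells among the Jchain-high members numbered 3, all in p16-DTR 1. IgG2c cells among them numbered 2, 3 and 0 in p16-DTR 1 to 3 and 2, 0 and 0 in controls 1 to 3. Without the Jchain-high and the myeloid or dendritic groups, pooled Ighg1 was at 46.5 CPM and Ighg2c at 157 CPM, against 1728 and 8008 CPM over all members. Igha was at 4037, 75.2 and 3681 CPM in p16-DTR 1 to 3 and at 12646, 11987 and 12083 CPM in controls. Igha did not overlap between the groups, which held for 479 of 8518 tested genes (5.62%). Its log2 fold change of -2.14 (SE 1.02) had an adjusted p of 0.9995 by the edgeR quasi-likelihood test. IgA cells were 3 of 29 Jchain-high members under the p16-DTR label and 8 of 24 in controls. Among the members not Jchain-high they were 6.09% and 6.10%. Without the Jchain-high and the myeloid or dendritic groups, pooled Igha was at 534 CPM, against 6372 CPM over all members.

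Heavy and light chain V genes, which B cells choose at random and pass to their daughters, are not among the genes of the rule. They are read from immunoglobulin transcripts, so the rule still bears on how often they can be called. Immunoglobulin genes took 12.2 to 31.4% of the members' UMIs and 1.07 to 1.88% in CD23-positive cells. A heavy V gene with at least 2 UMIs and a light V gene with at least 3 UMIs were both found in 85 members, 144 IgD-only and 446 CD23-positive cells. Related V segments share sequence, so a V gene call is uncertain within its family, and the junction that would define a clone was not read here. Pairs were called in 85 of 250 members and 446 of 3597 CD23-positive cells, and the members were the deeper cells. The part of depth and of immunoglobulin level in what follows was not tested. Within a single library, the most repeated pair joined Ighv5-6 and Igkv6-15, in 10 B cells of p16-DTR 3. Over all libraries, Ighv11-2 with Igkv14-126 was found in more, 13 B cells. The pairs Ighv11-2 with Igkv14-126 and Ighv12-3 with Igkv4-91 are known from mouse B-1 cells that bind phosphatidylcholine. The last 60 bases of these 6 germline segments are shown to let their similarity be seen, 5′ to 3′, with capitals marking the codon of the conserved cysteine before the third complementarity-determining region.
Ighv5-6: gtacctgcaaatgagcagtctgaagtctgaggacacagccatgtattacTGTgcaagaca
Ighv11-2: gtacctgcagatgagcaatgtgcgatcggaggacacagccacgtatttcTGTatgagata
Ighv12-3: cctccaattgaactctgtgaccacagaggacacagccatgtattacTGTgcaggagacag
Igkv6-15: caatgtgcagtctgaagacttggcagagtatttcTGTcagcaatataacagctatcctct
Igkv14-126: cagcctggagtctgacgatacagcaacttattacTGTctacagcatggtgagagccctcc
Igkv4-91: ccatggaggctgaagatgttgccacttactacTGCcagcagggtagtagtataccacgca
The sequences are those of GENCODE M21 on GRCm38. Ighv5-6 lies on chromosome 12 at 113625506 to 113625956, Ighv11-2 at 114048241 to 114048812 and Ighv12-3 at 114366521 to 114366954, all on the minus strand. Igkv6-15 lies on chromosome 6 at 70406469 to 70406992 (minus), Igkv14-126 at 67896172 to 67896642 (plus) and Igkv4-91 at 68768555 to 68769103 (minus). As a share of the shorter annotated transcript of each pair aligned, the closest other segment matched 95.5% of bases for Ighv5-6, 98.9% for Ighv11-2, 77.7% for Ighv12-3, 94.5% for Igkv6-15, 91.6% for Igkv14-126 and 87.2% for Igkv4-91.

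The share of cells whose V pair recurred in their library was higher among members than among CD23-positive cells, a difference that was not tested. Of the 85 members with a pair, 28 (32.9%) had the same pair as another gated B cell of the same library, against 51 of 446 CD23-positive cells (11.4%) and 48 of 144 IgD-only cells (33.3%). By library the members' share was 26.7%, 33.3% and 37.5% in p16-DTR 1 to 3 and 18.8%, 66.7% and 12.5% in controls 1 to 3. It lay above that of CD23-positive cells in each of the 6 libraries, with control 3 resting on 1 of 8 members. Jchain-high members with a pair seen only among themselves included 2 IgG2c cells with Ighv3-5 and Igkv6-23 in control 1 and 2 IgG1 cells with Ighv2-6 and Igkv4-72 in p16-DTR 1.

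**Figure D3:**
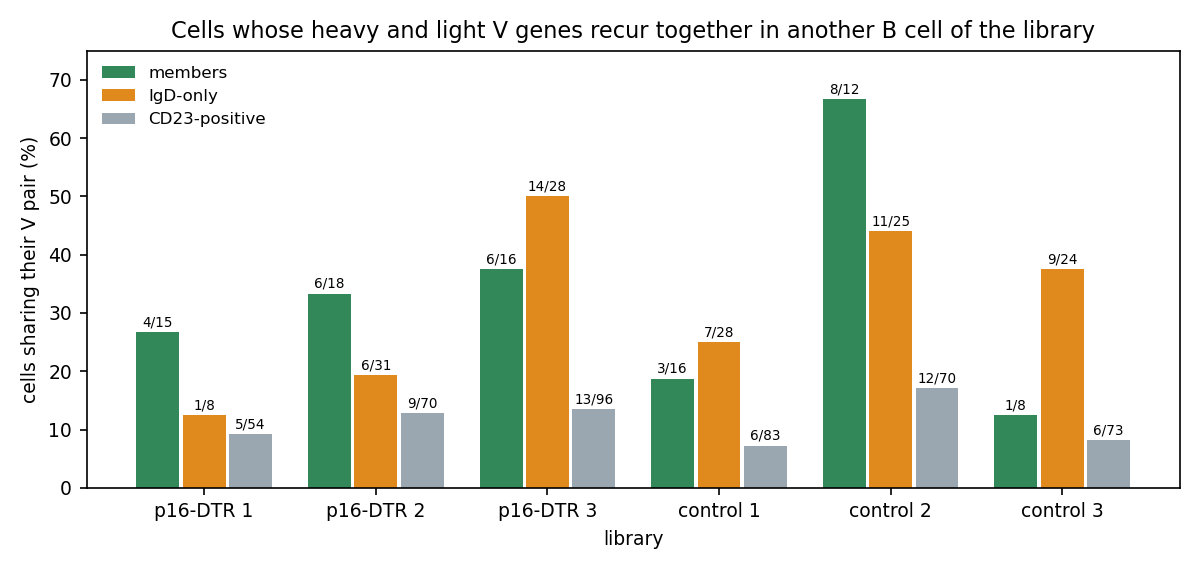
Percentage of cells with a called heavy and light V gene whose pair recurred in another gated B cell of the same library, for members, IgD-only and CD23-positive cells, with the counts above the bars. Members lie above CD23-positive cells in all 6 libraries, and control 2 reaches 66.7%.

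Several repeated pairs held both members and IgD-only cells. All 10 B cells with Ighv5-6 and Igkv6-15 came from p16-DTR 3: 4 members, 6 IgD-only cells and 0 CD23-positive cells, all IgM. All 7 with Ighv6-6 and Igkv3-4 came from control 2, with 3 members, 3 IgD-only and 1 CD23-positive cell. Another 8 cells of control 2 paired Ighv6-6 with Igkv3-12, a light chain segment 89.97% identical to Igkv3-4. Ighv11-2 with Igkv14-126 was found in 13 cells, 3 of them members and 10 IgD-only, of which 8 came from p16-DTR 3, 3 from p16-DTR 2 and 1 each from p16-DTR 1 and control 1. Ighv12-3 with Igkv4-91 was found in 5 cells of 5 libraries, 2 of them members and 3 IgD-only. Of these 18 cells with pairs known from B-1 cells, 0 were among the 446 CD23-positive cells with a pair, and all 18 were IgM. At least 2 of Cd80, Nt5e and Zbtb32 were found in 11 of the 13 and 3 of the 5.

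Members were next set beside the CD23-positive cells of the same library. This contrast is the rule's own, so it is a description with no test. Levels are mean CPM of summed counts over 6 libraries, and the log2 ratio of members to CD23-positive cells adds 1 CPM to both. Of 6725 genes at 20 CPM or more in either sum, 546 (8.12%) were higher in members in all 6 libraries and 3121 (46.4%) lower, with a median log2 ratio of -0.42. A gene that reached 20 CPM in 1 of the sums only had to differ, which held for 274 genes in members and 897 in CD23-positive cells. Of the 5554 genes at 20 CPM in both sums, an alternative chosen after the data were seen, 2528 were lower in all 6 libraries and the median was -0.38. Immunoglobulin genes took 12.2 to 31.4% of the members' UMIs and 1.07 to 1.88% in CD23-positive cells. With these genes left out of the totals, an alternative chosen after the data were seen, the median was -0.11 and the counts were 1178 higher and 1615 lower. Without the Jchain-high and the myeloid or dendritic groups the median was -0.12, and the ratios below are read against these medians.

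The 12 genes with the largest ratios in the upward direction included antibody genes. Ighg2c (log2 ratio 7.42 ± 4.53, SD, n = 6 libraries), Ighg2b (7.24 ± 2.45), Jchain (6.40 ± 2.17), Igha (6.22 ± 3.90) and the kappa light chain Igkc (4.08 ± 0.74) were joined by Tnfrsf17 (4.50 ± 0.75), the BCMA receptor of plasma cells, and Derl3 (4.41 ± 0.79). Fam46c, a poly(A) polymerase of antibody-secreting cells, was at 4.24 ± 0.41, with Slpi at 4.25 ± 1.48, Prg2 at 5.30 ± 2.25, Oosp1 at 4.06 ± 0.85 and Pls1 at 3.98 ± 0.71. Without the Jchain-high and the myeloid or dendritic groups, Slpi stood at 0.03, Pls1 at 0.15 and Prg2 at 0.36, while Fam46c stood at 3.69, Igha at 4.84 and Ighg2c at 4.75. The higher levels of Slpi, Pls1 and Prg2 thus lay in those 2 groups. For Igha and Ighg2c much of the message lay there too: pooled over cells, the remaining 168 members held 534 and 157 CPM of them.

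The 12 genes with the largest ratios downward were led by Gm47782 (-5.63 ± 0.88), the kinase gene Tnik (-4.65 ± 1.46), Gm16341 (-4.62 ± 1.21), Cr2 (-4.16 ± 0.94) and the chromatin organiser Satb1 (-3.82 ± 0.42). Zfp318, a factor needed for the long transcript that yields Ighd, was at -3.56 ± 0.86 and follows a gene of the rule. Cables1 (-3.74), B3gnt7 (-3.66), Rflnb (-3.42), Tmem108 (-3.26), Gad1 (-3.17) and Treml2 (-3.16) completed the list. Gm16341 (chromosome 1, 86275509 to 86301375, minus strand) overlaps the end of Armc9 on the other strand, so the source of its reads is uncertain. All 12 stayed below -2.5 without the Jchain-high and the myeloid or dendritic groups, from -6.13 for Gm47782 to -2.52 for Treml2. Satb1 was at 65.1, 56.7 and 68.7 CPM in members of p16-DTR 1 to 3 and at 102, 118 and 179 CPM in controls, against a mean of 1304 CPM in CD23-positive cells.

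Of the plasma cell list, 10 of 10 genes were higher in all 6 libraries, with a median log2 ratio of 2.99. Of these, 5 reached 20 CPM only in members (Sdc1, Prdm1, Tnfrsf17, Derl3 and Fkbp11), and the other 5 had a median of 2.55. The median was 0.76 without the Jchain-high and the myeloid or dendritic groups. Sdc1 then stood at -1.66, Fkbp11 at -0.29 and Xbp1 at -0.24, whereas Prdm1 stood at 2.66, Mzb1 at 1.72 and Derl3 at 1.21. Prdm1 was at 166, 138 and 100.4 CPM in p16-DTR 1 to 3 and at 202, 83.1 and 166 CPM in controls 1 to 3, and the groups overlapped.

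The list of genes known from age-associated B cells had 12 of 15 genes higher in all 6 libraries when no minimum level was set. Of the 13 that reached 20 CPM in either sum the median was 1.43, and 0.96 over the 10 that reached it in both, which left out Cxcr3, Fas and Zbtb32. In 6 of 6 libraries it was lower for Cd86 (-0.59, but 0.27 without the Jchain-high and the myeloid or dendritic groups). Without the Jchain-high and the myeloid or dendritic groups the median was 2.52. Ratios above the median included those of Zbtb32 (2.83), Cxcr3 (2.39), Cd80 (2.09), Lgals1 (1.95) and Fcrl5 (1.52), genes that other memory and B-1 states share. Tbx21 and Itgax themselves did not reach 20 CPM. Tbx21 was at 4.23, 12.2 and 7.27 CPM in p16-DTR 1 to 3 and at 8.90, 15.3 and 10.6 CPM in controls, with a ratio of 1.11 ± 0.72, higher in 6 of 6 libraries. Itgax was at 11.8, 12.2 and 8.59 CPM and at 3.24, 5.47 and 58.0 CPM, with a ratio of 0.25 ± 1.20, higher in 3 of 6, and of 1.44 without the 2 groups. Control 3 thus held the highest Itgax value of the 6.

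Of the B-1 list, 7 of 8 genes were higher in all 6 libraries when no minimum level was set. The median was 1.77 over 7 genes at 20 CPM in either sum and 1.26 over the 5 at 20 CPM in both, without Bhlhe41 and Zbtb32 (for the 7, 2.74 without the Jchain-high and the myeloid or dendritic groups). Ctla4 was at 3.30, Bhlhe41 at 2.79 and Spn at 1.77. Cd5 stayed under 20 CPM, at 0 to 5.47 CPM by library, and was higher in 5 of 6. The memory list had 5 of 8 genes higher, among them Nt5e (2.28 ± 0.93), Cd80 (2.09 ± 0.69) and Itgb1 (1.44 ± 0.25), and 2 lower, the chemokine receptor Ccr6 (-1.14, and -0.30 without the 2 groups) and Hhex (-1.23, and -0.57). When no minimum level was set, 5 of its 9 genes were higher and 3 lower, which adds Cd27. Of the marginal zone list, Cr2, Dtx1 and Notch2 were lower and Cd9 and Mzb1 higher, in 6 of 6 libraries each. Without the 2 groups its median moved from -0.98 to 0.03, and Dtx1 from -0.98 to 0.03, the middle gene of the 5.

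Genes of the resting follicular state were lower as a list, 10 of 11 in all 6 libraries, with a median of -1.72 (-1.12 without the 2 groups). Bach2 was at -2.25 ± 0.41, Foxo1 at -1.88 ± 0.57 and Ccr7 at -1.83 ± 0.61, while Klf2, which controls exit from tissue, was at -0.47, lower in 5 of 6 libraries, and at 0.10 without the 2 groups. Receptor signalling genes were lower in all 6 libraries for 13 of 16 (median -0.81) and antigen presentation genes for 10 of 15 (median -0.81). These 2 lists moved to 0.00 and -0.21 without the Jchain-high and the myeloid or dendritic groups, beside -0.12 for all genes. Icosl was at -2.14, and at -1.89 without them.

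Among homing genes, Cxcr3, Cd44 (0.97), Itgb1 and Itgb7 (0.36) were higher and Ccr6, Ccr7, Cxcr4 (-1.28), Cxcr5 (-1.54) and Gpr183 (-1.24) lower; the list's median moved from -0.49 to 0.10 without the 2 groups. Among Toll-like receptor genes, 0 of 9 were higher in all 6 libraries and 3 were lower, beside 46.4% of all genes lower. Of these Tlr1 (-1.10) and Irf8 (-0.93) stood at -0.38 and -0.40 without the 2 groups and Ly86 turned from -0.77 to 0.05, as the list's median did from -0.28 to 0.05. Tlr7, which drives age-associated B cells, was at 27.05, 36.5 and 20.5 CPM in p16-DTR 1 to 3 and at 23.5, 37.2 and 15.4 CPM in controls, with a ratio of 0.38 ± 0.55 (1.27 without the 2 groups). Of the BAFF and survival list, Tnfrsf13b (TACI, 0.69) and Tnfrsf17 were higher and Tnfrsf13c (BAFF receptor, -0.52) lower. Without the 2 groups Tnfrsf17 stood at 1.04, Tnfrsf13c turned to 0.08 and the list's median turned from -0.25 to 0.23. Among interferon genes Isg15 (1.011), Bst2 (0.79) and Zbp1 (0.76) were higher, and they stood at -0.07, 0.42 and 0.05 without the 2 groups. The cytokine genes Ltb (-1.010), Tgfb1 (-1.10) and Il12a (-1.56) were lower, and stood at -0.08, -0.69 and -0.95 without the 2 groups. Il10 stayed under 20 CPM, at 12.4 CPM in members and 1.65 CPM in CD23-positive cells. Of the germinal centre list, Fas (1.42) was higher and Bcl6 (-1.43) lower. Of the transitional list Vpreb3 was lower (-1.87).

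**Figure D4:**
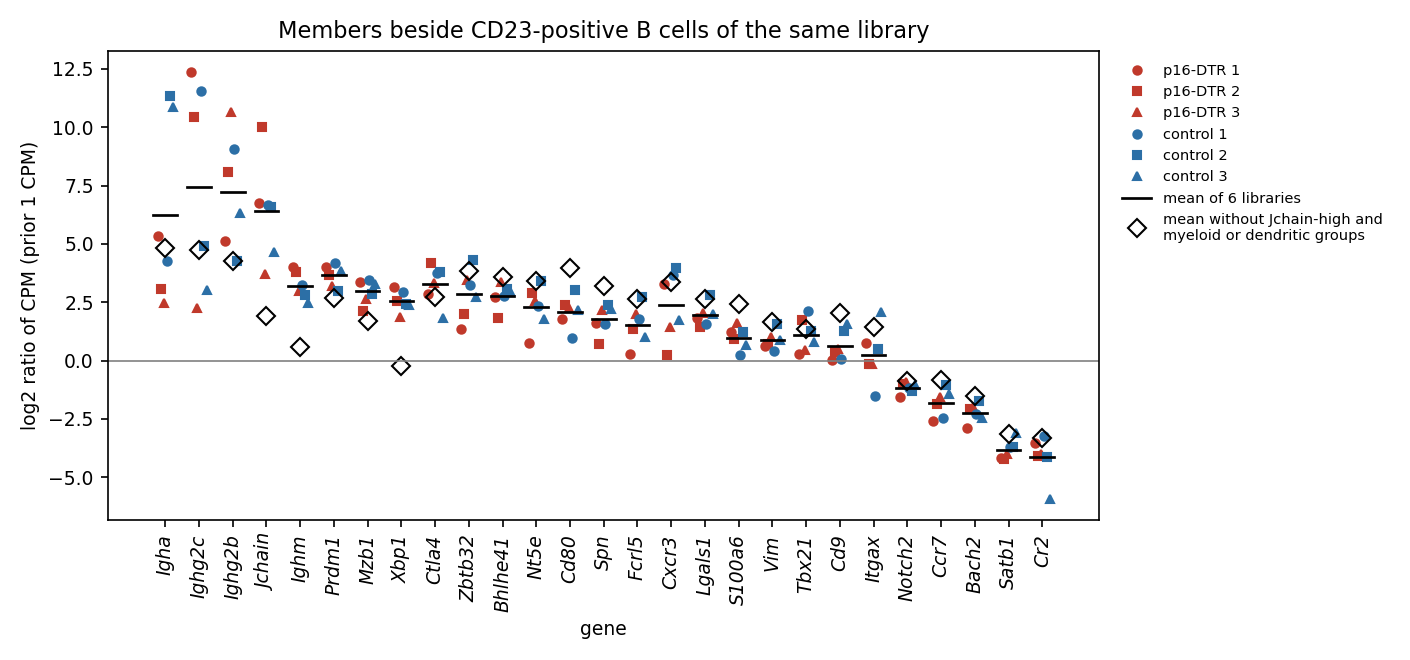
Log2 ratio of CPM in members to CD23-positive B cells of the same library (prior 1 CPM) for named genes, with 1 point per library, a bar for the mean of 6 libraries and a diamond for the mean without the Jchain-high and the myeloid or dendritic groups. Diamonds fall below the bars for Jchain, Ighm and Xbp1 and lie above them for Cd80, Spn, S100a6 and Cd9.

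Of the proliferation list, 3 of 8 genes reached 20 CPM. Mki67 was at 113 CPM against 11.3 CPM (log2 ratio 3.10 ± 1.86) and Top2a had a ratio of 1.56 ± 1.44, both higher in 6 of 6, and Pcna was at -0.42, lower in 6 of 6. Mki67 was at 182, 49.2 and 123 CPM in p16-DTR 1 to 3 and at 231, 43.7 and 47.3 CPM in controls 1 to 3. Without the Jchain-high and the myeloid or dendritic groups the ratios were 2.32 for Mki67 and 0.58 for Top2a. Without cells holding strict contaminant genes they were 2.19 and -0.65, and the list's median turned from 1.56 to -0.49.

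The effect of the treatment group was then tested. The first comparison is of the member share, which is the yield of the rule itself, and those after it are of values that the rule did not use. Members made up 4.56%, 7.96% and 6.45% of gated B cells in libraries p16-DTR 1 to 3 and 4.36%, 5.03% and 3.21% in controls 1 to 3. Library p16-DTR 1 lay among the controls and the other 2 above them. The means were 6.32% ± 1.70 and 4.2% ± 0.923 (SD, n = 3 each), a difference of 2.12 percentage points with a two-sided exact permutation p of 0.2 (adjusted p = 0.6). In cells of at least 5000 UMIs the difference was 2.39 points (exact permutation p = 0.1, the smallest possible). Because the gate asks for 0 UMIs, its yield depends on depth. When each cell was first thinned to 5000 UMIs and then gated, the shares rose to 10.0%, 15.8% and 12.2% against 8.48%, 9.71% and 8.48%. They did not overlap, and the exact permutation p was again 0.1. Thinning can take away the Fcer2a or Ighd UMIs of other B cells, so these shares also count cells that are not members. The difference was smaller in other cell sets: 1.51 points without the Jchain-high and the myeloid or dendritic groups (exact permutation p = 0.3), and 0.871 points without cells holding strict contaminant genes (exact permutation p = 0.6). Of all leukocytes, members were 0.795% ± 0.265 and 0.756% ± 0.203 (exact permutation p = 0.8, adjusted p = 0.9), and the groups overlapped. The 2 shares differ in their denominator. Gated B cells numbered 592, 754 and 884 among 5361, 5879 and 6617 leukocytes in p16-DTR 1 to 3. In controls 1 to 3 they numbered 895, 755 and 904 among 4959, 4033 and 5369. They were thus a smaller part of leukocytes in each library labelled p16-DTR than in any control, which was not tested.

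Shares of members with a marker UMI were compared after thinning to 5000 UMIs, which kept 225 members and left out 9 with the p16-DTR label and 16 controls. Tbx21 was then found in 13 of 225 members and Itgax in 13 of 225 (5.78% each). Background in endothelial cells, thinned alike, was 0.123% and 0.471% for Tbx21 and 0.123% and 0.0835% for Itgax in the 2 groups. The Tbx21 share averaged 5.54% ± 4.84 against 4.65% ± 2.64, p16-DTR label first (exact permutation p = 0.9), and the Itgax share 6.22% ± 2.30 and 5.93% ± 4.86 (exact permutation p = 0.8), both with adjusted p of 0.9. With the Jchain-high and the myeloid or dendritic groups left out, the differences were -3.22 and 0.101 percentage points (exact permutation p = 0.6 and 1), so the Tbx21 difference changed sign. Without thinning the Tbx21 means were 12.2% and 14.1%, in the other direction.

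Cdkn2a was found in 2 of 27, 8 of 56 and 4 of 52 thinned members of p16-DTR 1 to 3 and in 0 of 32, 0 of 32 and 1 of 26 members of controls 1 to 3. The means were 9.80% ± 3.89 and 1.28% ± 2.22, the groups did not overlap, and the exact permutation p was 0.1, the smallest the design allows (adjusted p = 0.6). Without cells holding strict contaminant genes the shares were 13.4% ± 13.9 and 0%, with an exact permutation p of 0.4. With the Jchain-high and the myeloid or dendritic groups left out, they were 11.4% ± 5.69 and 0%, with an exact permutation p of 0.1. Without thinning, 32 of 144 and 5 of 106 members held a Cdkn2a UMI. A like difference was seen in other cells: CD23-positive cells had 100 of 1573 (6.36%) and 0 of 1926 thinned cells with a UMI, and neutrophils 24 of 2400 (1.00%) and 0 of 1768. In endothelial cells the shares were closer, 2.43% and 1.37%. The gene lies on chromosome 4 (89274471 to 89294653, minus strand, GRCm38) and encodes both p16 and p19Arf, whose transcripts share their 3′ end and cannot be told apart here.

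**Figure D5:**
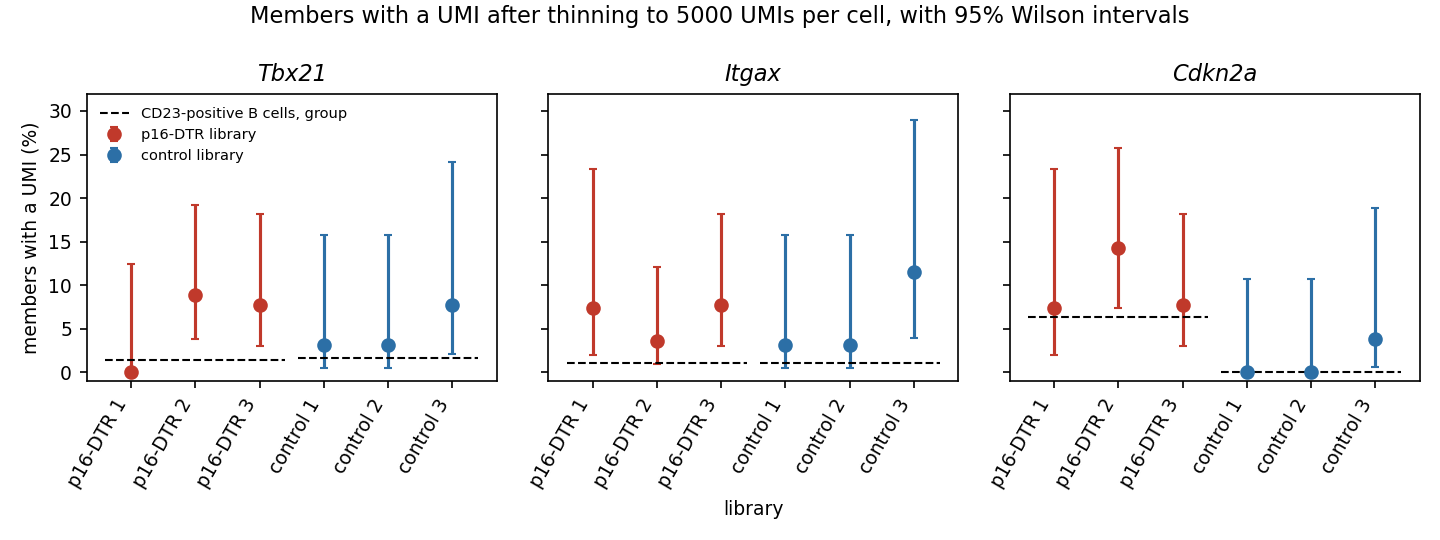
Percentage of members with a UMI of Tbx21, Itgax or Cdkn2a in each library after thinning to 5000 UMIs per cell (points, with 95% Wilson intervals that cover counting error only) and the share in CD23-positive B cells of each group (dashed lines). Only the Cdkn2a points separate the groups, at 7.41 to 14.3% against 0 to 3.85%.

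Across all genes, no gene was called between the groups in the members. The edgeR quasi-likelihood test on counts summed per library called 0 of 8518 genes (0%) at an adjusted p under 0.05. Before adjustment, 196 genes had a p under 0.05, and DESeq2 called 7 (Cd209a, Tppp3, Ccnd2, Zcwpw1, Vcan, Stat4 and Cdkn2a). The smallest p belonged to Cdkn2a, with a log2 fold change of 3.59 (SE 0.50, edgeR adjusted p = 0.413, DESeq2 adjusted p = 0.0242). The next were Cd209a (-5.50, SE 0.80), a dendritic cell lectin, the cyclin gene Ccnd2 (1.05, SE 0.18), Tppp3 (2.05, SE 0.36) and Il4i1 (2.88, SE 0.51), an enzyme gene induced in activated B cells. These 5 had edgeR adjusted p values of 0.413 to 0.550. The values of their 2 groups did not overlap, which held for 479 of 8518 tested genes (5.62%). The 5 were chosen by their p, so the lack of overlap adds no support.

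Of these, Ccnd2 was the most evenly expressed, at 205, 228 and 283 CPM in members of p16-DTR 1 to 3 and 123, 110.4 and 121 CPM in controls. Il4i1 was at 17.8, 9.84 and 25.1 CPM against 2.43, 2.19 and 2.37 CPM. Cd209a was at 0, 4.05 and 0.661 CPM against 38.0, 62.3 and 168 CPM. Summed over the dendritic list, members held 16.1 to 43.6 CPM under the p16-DTR label and 57.5 to 241 CPM in controls, and Cd209a, itself a gene of that list, was found in 7 of 250 members, 4 of them Jchain-high and 3 in the myeloid or dendritic group, which Cd209a counts helped to set, and in 0 of the other 168. Summed over the monocyte and macrophage list, the ranges were 1343 to 2377 and 117 to 3040 CPM, which overlapped.

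Among the lists, edgeR called 0 genes, whereas the DESeq2 calls included Cd209a of the dendritic list and Cdkn2a of the cell cycle inhibitor list. The medians of the edgeR log2 fold change stood beside 0.00 for all tested genes, of which 4311 of 8518 were positive. The plasma cell list had a median of -0.33 with 3 of 10 genes positive, the antigen presentation list -0.24 with 3 of 15, the receptor signalling list -0.13 with 3 of 16 and the Toll-like receptor list -0.26 with 3 of 12. The dendritic list had 2 tested genes and a median of -3.11, with 0 positive. The interferon list stood at 0.22 with 7 of 9 positive, the immediate early list at 0.13 with 11 of 13, the age-associated list at -0.08 with 7 of 15 and the B-1 list at 0.07 with 5 of 7. Tbx21 had a log2 fold change of -0.47 (SE 0.43), Itgax -0.86 (SE 0.88), Cdkn1a, the p21 gene, 0.46 (SE 0.73), Mki67 0.14 (SE 0.74) and Ighm 0.43 (SE 0.47), all with an edgeR adjusted p of 0.9995. A tdTomato entry in the feature table held 1 UMI in p16-DTR 3 and 0 in members of the other 5 libraries.

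Whether the group difference itself differed between members and CD23-positive cells was tested with an interaction term in edgeR, with each library as a block. It called 0 of 13048 genes (0%). Before adjustment, 280 had a p under 0.05, and DESeq2 called 1, Cd209a. The smallest p values belonged to Vcan (interaction 3.12, SE 0.57), a matrix proteoglycan gene of monocytes, Gas7 (1.52, SE 0.28), Cd209a (-5.23, SE 1.06), the RNA-editing enzyme gene Apobec1 (0.88, SE 0.19) and Zcwpw1 (3.48, SE 0.75), each with an edgeR adjusted p of 1. Without the Jchain-high and the myeloid or dendritic groups, edgeR called 0 of 6313 genes between the groups (241 at a p under 0.05 before adjustment) and 0 of 12498 for the interaction (435). Vcan had an interaction of -0.03 without the Jchain-high and the myeloid or dendritic groups. For Cdkn2a, the log2 fold change was 3.59 in members and 5.61 (SE 0.53) in CD23-positive cells, with an interaction of -2.03 (SE 0.79) and an edgeR adjusted p of 1.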

How the data were processed

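Single-cell 3′ RNA libraries of 6 mouse lungs were deposited by the authors as raw UMI counts, processed with Cell Ranger 8.0.1 against mm10, per the submitters' processing notes. Members were gated on these counts as the report states, with no doublet caller. The members and gene lists were chosen with earlier results of these data known. Counts were summed per library and tested with edgeR 4.0.16 (TMM, quasi-likelihood, Benjamini-Hochberg adjustment, threshold 0.05) in R 4.3.3, with DESeq2 1.42.0 as an alternative. The SE given with an edgeR log2 fold change is its absolute value divided by the square root of the quasi-likelihood F statistic. CPM values were computed from the deposited counts. Shares were compared with two-sided exact permutation tests over 6 libraries (scipy 1.17.1), after thinning to 5000 UMIs for single genes. Intervals are 95% Wilson and cover counting error only, and a count of 0 allows up to 3 counts. Scripts were tested on simulated data. Named genes were a set of markers, the 12 largest log2 ratios in each direction among genes at 20 CPM, and the 5 smallest p values of each test; list members and the other genes of the transcript groups were picked after their values were seen. Replicates differed beyond sampling noise (chi-square per degree of freedom 8.6 to 31.5). Alternatives were other scalings, filters, tests, cell sets and leaving out each library. Some genes of the lists are not reported here.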

Additional observations from a re-analysis of the deposited data

How the results depend on the processing

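Each library was left out in turn. The difference of the libraries labelled p16-DTR from controls, in percentage points, then ranged from 1.31 to 3.00 for the member share of B cells, -0.0737 to 0.185 for leukocytes, -6.11 to 14.9 for switched members, -0.801 to 3.66 for Tbx21, -1.11 to 3.10 for Itgax and 6.27 to 9.80 for Cdkn2a. Calls between the groups ranged from 0 to 1 (Il1r2, without control 2) and interaction calls from 0 to 0. The Tbx21 difference was -1.90 with no thinning and -3.22 without the Jchain-high and the myeloid or dendritic groups. The leukocyte difference was -0.00665 without these groups and -0.0452 without cells holding strict contaminant genes. Group calls were 1 with no filter on low counts (Cd209a) and 7 by DESeq2. Interaction calls were 2 with no filter (Cd209a and Vcan), 1 by DESeq2 (Cd209a) and 4 without strict contaminant cells (Gm26870, Stat4, Ighg2b and Satb1), and the Vcan interaction was -0.0307 without the 2 groups. Of genes in 6 of 6 libraries, 333 were higher and 671 lower without strict contaminant cells, and 1178 and 1615 with immunoglobulin genes left out of the totals. The lower count was 985 without the 2 groups and 961 without Jchain-high cells. Pls1 had a ratio of -0.48 without strict contaminant cells. Settings without transcript groups or immunoglobulin genes were chosen after seeing the data. The cause was not tested.

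Replicate numbers did not pair the samples, since same-numbered members' sums correlated at 0.113, -0.0606 and -0.08. With the replicate block, exact sign-flip permutation p values were 0.25 for the share of B cells and for Cdkn2a, 0.75 for leukocytes, switched members and Itgax, and 1 for Tbx21, with 0.25 the smallest possible, and edgeR called 1 gene (Igkv5-39). With 27 to 60 members per library, genes of low level rest on few UMIs.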

Other observations

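IgD-only cells, which are not members, held some of the same transcripts as the unswitched members. Of 937 IgD-only cells, 18 (1.92%) passed the Jchain limit and 4 (0.427%) were switched. With these and the cells with myeloid or dendritic transcripts set apart, 208 (22.2% of the 937) had at least 2 of Cd80, Nt5e and Zbtb32. Il10 was found in 8.43% of them, Bhlhe41 in 35.5% and Fcrl5 in 34.3%. Control 3 held a further repeated pair, Ighv1-26 with Igkv8-19, in 6 cells, of which 5 were IgD-only, 1 CD23-positive and 0 members.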
